A study of Malus domestica with 8 samples.

Results

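The 96 transcripts described here have identifiers of apple chromosome 15 between MD15G1164700 and MD15G1180600, both included, and lay at a median of 0.498 times their level in the other libraries in leaves of 1 knock-out line, mdagg-4. They are the features of that identifier range with at least 10 estimated reads in 2 or more of 8 libraries, 96 of the 32483 features of the series that pass the same count rule, and 96 of the 159 identifiers of the range. The range was chosen because its abundant features were low in mdagg-4 against the control, so every level in mdagg-4 below is a description and carries no test. All 96 members would also have passed the count rule on the 6 libraries other than mdagg-4 alone, and 85 of them had at least 10 reads in both mdagg-4 libraries.

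Leaf messenger RNA was sequenced in the cultivar 'Gala' of Malus domestica, in 2 libraries of non-transformed plants (wt) and in 2 of each of 3 lines, mdagg-2, mdagg-3 and also mdagg-4, in which CRISPR/Cas9 was used to knock out MdAGG, an apple agglutinin gene. Plants of all 4 groups had been rooted in vitro, kept for 8 weeks in a greenhouse, and sprayed with 0.2 g/l acibenzolar-S-methyl, a synthetic activator of salicylic acid type defence, 3 days before sampling. No untreated plants and no transformed plants with MdAGG intact are among the libraries, and each line was measured as pooled leaves of 2 independent experiments, per the series' design text. Whether the plants of a line descend from 1 cell is not given in the sources used here. Total estimated reads ran from 28591909 to 36995911 per library. Each group has 2 libraries, which limits the precision of every comparison.

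'Gala' is a diploid apple, in which a nuclear gene is present as a copy from each parent, and the copies can differ in sequence and in activity. Bulk sequencing counts the messenger RNA of both copies together under 1 identifier. A level in bulk leaf also cannot tell fewer cells that express a gene from less RNA per cell. In the identifiers, the digits after MD stand for the chromosome and the later number rises along it, so that order below means identifier order, while the files give no positions in bases. None of the 52311 identifiers (0) could be paired with a gene name in the reference table used here, so members are named by identifier and no function is given for them. For the same reason leaf marker genes could not be looked up.

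Levels are read counts scaled to library size with TMM factors (CPM), and TPM values are levels that are also scaled for length. Each member was given a ratio, its mean CPM in the 2 mdagg-4 libraries divided by its mean CPM in the 6 other libraries. Members with ratios from 0.4 to 0.6 are called near 0.5, those from 0.8 to 1.2 at full level, and those of at most 0.1 nearly lost. Members from 0.1 to 0.4 are called reduced, those from 0.6 to 0.8 intermediate, and those above 1.2 higher. Members with a mean log2 CPM above 3 are called abundant (50 members) and the others low-abundance (46 members). An earlier scan of these data that found the run used abundant features, so the low-abundance members took no part in it, except that a member close to the threshold may have been placed differently there.

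The median ratio of the 96 members was 0.498, with the middle 50% of them between 0.415 and 0.621, while the median over all 32483 features was 0.993. Of the 96 members, 47 were near 0.5, where 4.47% of all features are. Another 20 members were reduced (1.68% of all features), 16 were intermediate (12.8%), 8 were at full level (61.5%), 2 were higher (19.5%) and 3 were nearly lost (0.148%). In 66 members both mdagg-4 libraries lay below all 6 others, which is so for 3.93% of all features, and in 0 members both lay above all 6 (2.94% of all features). These counts follow from how the range was chosen, and nothing is read from them beyond the description. Summed over the 96 members, the level was 1021 and 889 CPM in the mdagg-4 libraries and between 1796 and 2045 CPM in the other 6.

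**Figure D1:**
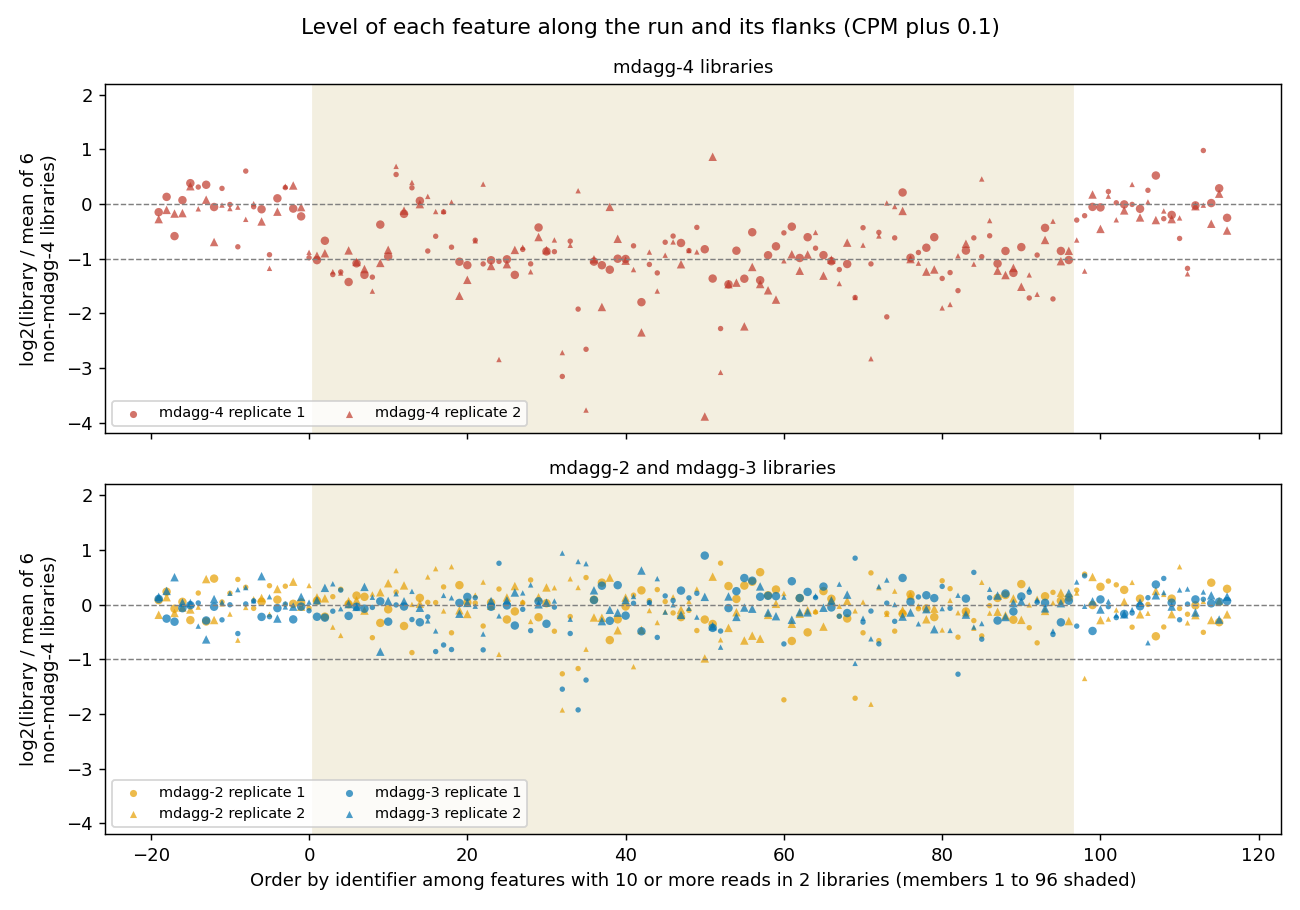
Log2 ratio of each library to the mean of the 6 libraries other than mdagg-4 (CPM plus 0.1), for the 96 members (shaded) and 20 features on either side, in identifier order. Large symbols are abundant features, small ones low-abundance features, circles replicate 1 and triangles replicate 2. The mdagg-4 libraries lie near -1 across most of the shaded range and return to near 0 outside it, whereas the mdagg-2 and mdagg-3 libraries scatter around 0 throughout.

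The low-abundance members had a midpoint close to that of the abundant ones, with a wider scatter. In mdagg-4 replicate 1 the median ratio was 0.504 over the 50 abundant members and 0.531 over the 46 low-abundance members. In mdagg-4 replicate 2 it was 0.476 and 0.543. These medians by library were taken on log2 ratios with 0.1 CPM added to both levels, which draws low-abundance members toward a ratio of 1. On the ratios of mean CPM, with nothing added, the medians were 0.488 for the abundant and 0.547 for the low-abundance members. Of the abundant members 34 were near 0.5, 7 reduced, 5 intermediate and 4 at full level. Of the low-abundance members 13 were near 0.5, 13 reduced, 11 intermediate, 4 at full level, 2 higher and 3 nearly lost. The spread among the 6 other libraries was also wider for them, with a median coefficient of variation of 0.29 against 0.147 for the abundant members, so the class of a low-abundance member is less certain.

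**Figure D2:**
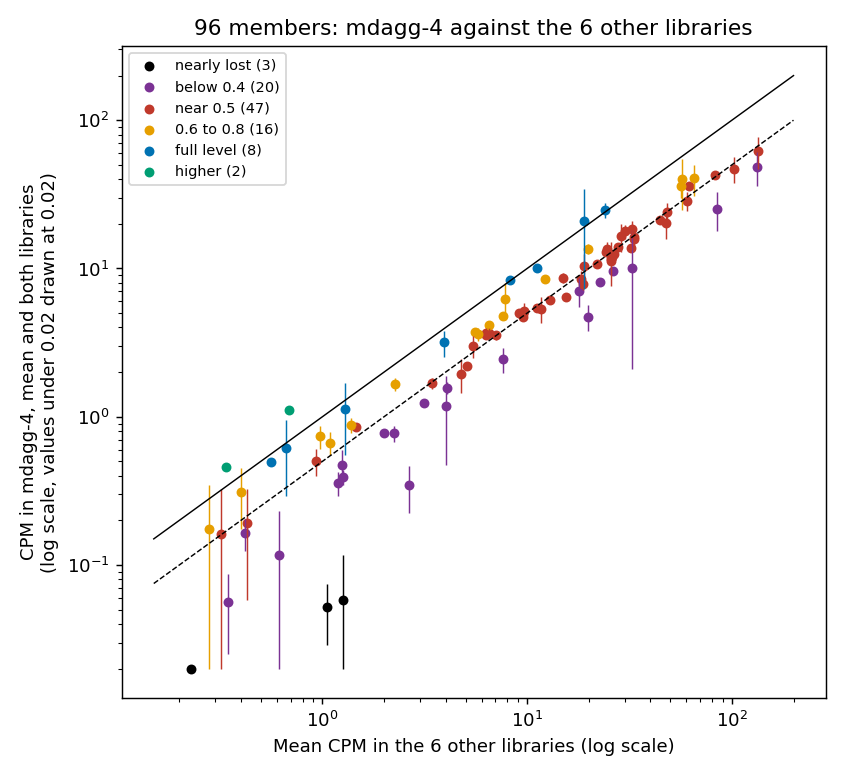
Mean CPM of each of the 96 members in the 6 other libraries (horizontal) against mdagg-4 (vertical), both on log scales, with vertical lines joining the 2 mdagg-4 libraries. The solid line marks equal levels and the dashed line a ratio of 0.5. Colours stand for the classes, with the reduced class shown as below 0.4 and the intermediate class as 0.6 to 0.8. Most points of abundant members follow the dashed line, up to above 100 CPM. Points below 1 CPM scatter from far under the dashed line to above the solid line. The 8 members at full level lie along the solid line.

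The 47 members near 0.5 had means from 0.319 to 134 CPM over the 6 other libraries, and in 25 of them both mdagg-4 libraries were near 0.5. The lowest, MD15G1176400, picked after its values were seen, had 0 and 13 reads in mdagg-4. Its ratios of 0 in replicate 1 and 1.015 in replicate 2 were both outside the class, which holds only for their mean. MD15G1178700 was at 77.1 and 46.6 CPM in the mdagg-4 libraries, and at 110 CPM at the lowest, 128 at the median and 173 at the highest in the 6 others. Its mdagg-4 libraries lay below all others although they differed from each other, and the ratio of means was 0.463 (61.9 ± 21.6 CPM, SD, n = 2, and 134 ± 24.7, SD, n = 6). MD15G1173100 was at 56.4 and 37.6 CPM in mdagg-4 and at 87.5, 101 and 121 CPM (lowest, median, highest) in the others. It had the highest level per length of the members near 0.5, at a mean of 193 TPM in the 6 other libraries and 96.3 TPM in mdagg-4.

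Some of the members near 0.5 varied little within either set of libraries. MD15G1165600 was at 21.0 and 21.4 CPM in mdagg-4, against 39.0 to 50.1 CPM in the others with a median of 44.1. MD15G1168800, which had the smallest spread of all members over the 6 other libraries (coefficient of variation 0.0451, picked after its values were seen), was at 12.9 and 12.0 CPM in mdagg-4 and between 24.6 and 27.7 CPM in the others, a ratio of 0.47. In both members the mdagg-4 libraries lay below all others.

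The other abundant members near 0.5 chosen by level gave the same picture. MD15G1180500 was at 45.4 and 39.9 CPM in mdagg-4, where the others ran from 65.9 to 96.1 (median 85.4). MD15G1177700 was at 34.2 and 37.3 CPM, against 54.6 to 75.0 (median 59.4). MD15G1178400 was at 33.0 and 24.3 CPM, against 51.4 to 69.3 (median 59.8). In all 3 the mdagg-4 libraries stayed under the lowest of the other 6. MD15G1177000 (27.7 and 20.4 CPM against 40.2 to 54.5) and MD15G1173600 (24.7 and 15.8 CPM against 41.7 to 53.5) did so too, with ratios of 0.497 and 0.427. Of the 34 abundant members near 0.5, 33 had both mdagg-4 libraries below all others (3.93% of all features). That count largely follows from the range and the class, both chosen by low levels in mdagg-4.

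Among low-abundance members near 0.5, the mdagg-4 libraries lay below all others in 10 of 13. The class is itself defined by a low mean in mdagg-4, so this count largely follows from it. Over all 46 low-abundance members it was 25, and over all features 3.93%. MD15G1172200 was at 5.00 and 5.01 CPM in mdagg-4 (172 and 201 reads) and between 8.48 and 9.95 CPM in the 6 others (246 to 340 reads). MD15G1176900 had 130 and 132 reads in mdagg-4 and 195 to 322 in the others, with a ratio of CPM of 0.499. MD15G1171900 had 136 and 134 reads against 175 to 272, a ratio of 0.562. MD15G1169900 had 117 and 159 reads against 130 to 243, a ratio of 0.583, and its reads overlapped between the groups although its CPM did not.

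A first departure from the common level was a stretch of 8 members that follow each other in the order, MD15G1166500 to MD15G1167900, members 11 to 18 of the run. It was picked after the values were seen. Its ratios ran from 0.763 to 1.61 with a median of 0.894. In 0 of its 8 members did both mdagg-4 libraries lie below all others, which is so for 3.93% of all features. MD15G1166900 was at 8.57 and 8.22 CPM in mdagg-4, inside the range of the others, 6.58 to 9.16 CPM (median 8.41). MD15G1166600, at 9.85 and 10.3 CPM, also lay inside the others' range of 8.51 to 14.3 CPM (median 11.3). Both are abundant, with at least 201 reads in every library.

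The other 6 members of the stretch are low-abundance. MD15G1166500 and MD15G1166800 are the 2 members classed as higher. MD15G1166500 had 36 and 47 reads in mdagg-4, 24 and 33 in mdagg-2, 16 and 9 in wt, and 21 and 29 in mdagg-3. Its mdagg-4 CPM of 1.05 and 1.17 overlapped with the highest of the others, 1.12. MD15G1166800 had 15 and 19 reads in mdagg-4 and 4 to 19 in the others. MD15G1167500, at full level, had 17 and 20 reads against 9 to 28, and MD15G1167200, MD15G1167300 and MD15G1167900 had ratios of 0.781, 0.763 and 0.797, each with mdagg-4 replicate 1 under replicate 2.

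Summed over the 8 members of this stretch, the mdagg-4 libraries were at 25.7 and 30.0 CPM, within the 24.0 to 39.6 CPM of the other 6. The 10 members before it summed to 119 and 104 CPM in mdagg-4 against 191 to 242 CPM in the others, and the 10 members after it to 62.9 and 61.7 CPM against 127 to 141. The ratios of these sums were 0.92 in the stretch, 0.53 before it and 0.466 after it. Most of the sum of the stretch came from MD15G1166600, MD15G1166900 and MD15G1167900, with means of 11.2, 8.25 and 7.82 CPM in the 6 others. That sum therefore says little about the scarcer members of the stretch. The ratio changed between neighbours in the order, from MD15G1166400 at 0.534 to MD15G1166500 at 1.61, and from MD15G1167900 at 0.797 to MD15G1168300 at 0.393. The members at both ends of the stretch are low-abundance, so these steps are uncertain. MD15G1167900 had ratios of 0.572 in mdagg-4 replicate 1 and 1.02 in replicate 2. In 7 of the 8 members the estimated reads were not whole in some library, which happens where reads are split among similar features, as against 69 of all 96 members. The part of shared reads in these levels was not tested.

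**Figure D3:**
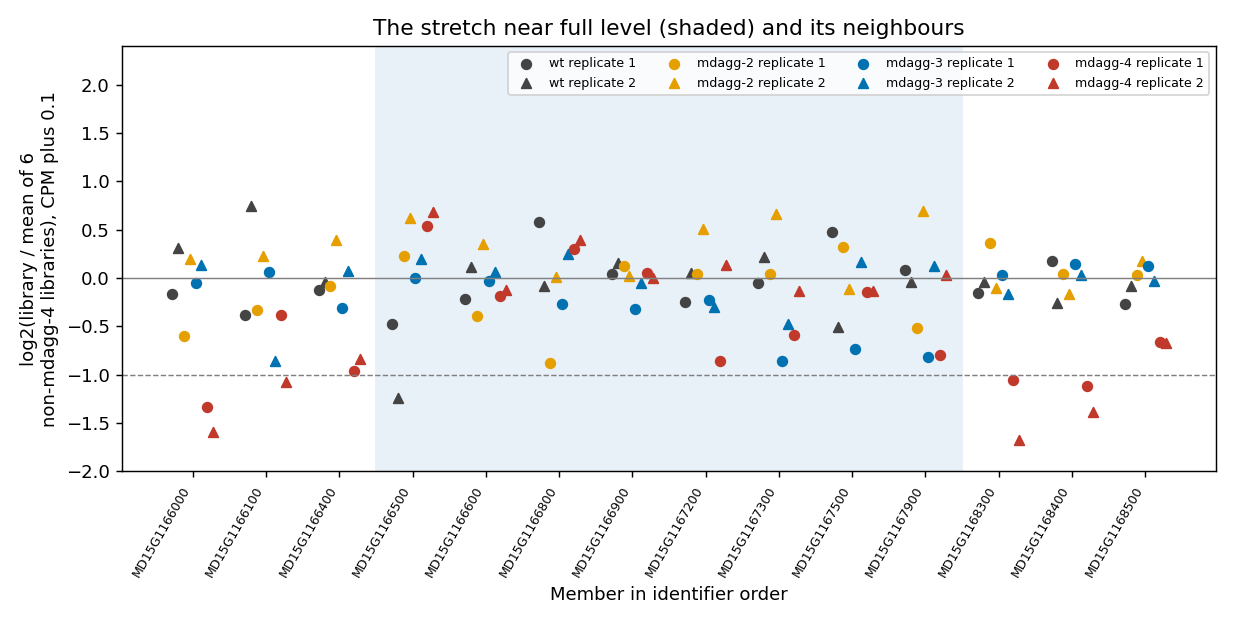
Log2 ratio of each of the 8 libraries to the mean of the 6 libraries other than mdagg-4 (CPM plus 0.1) for members 8 to 21 in identifier order, with the stretch near full level shaded. Colours mark the groups, circles replicate 1 and triangles replicate 2. The red mdagg-4 symbols lie among the others in the shaded stretch and below them in most neighbouring members.

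Of the 5 members at full level outside this stretch, a pair were neighbours. MD15G1176700, the most abundant of them by CPM, was at 27.6 and 21.9 CPM in mdagg-4 and between 20.5 and 33.6 CPM in the others (median 21.8), a ratio of 1.03. Its reads were whole in all 8 libraries. MD15G1176500, next to it, was at 2.53 and 3.81 CPM in mdagg-4 against 2.79 to 4.82 CPM (87 and 153 reads against 81 to 165), a ratio of 0.804 at the edge of the class. Both mdagg-4 libraries of MD15G1176700 lay within the range of the others in CPM, and so did 1 of the 2 of MD15G1176500.

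For 3 further members the class of full level is the mean of mdagg-4 libraries neither of which was at full level. Their ratios were 0.385 in replicate 1 and 1.82 in replicate 2 for MD15G1172700, 0.426 and 1.31 for MD15G1168600, and 0.438 and 1.43 for MD15G1177900. MD15G1172700 was at 7.29 CPM in replicate 1, below the others' 14.1 to 27.1, and at 34.5 CPM in replicate 2, above them. MD15G1168600 had 19 and 68 reads, and MD15G1177900 had 10 and 38, where the others had 21 to 72 and 12 to 34. In each other group too, replicate 2 was above replicate 1 in CPM in all 3 members, by unlike amounts. For MD15G1172700 the replicates were at 14.8 and 27.1 CPM in mdagg-2, 20.4 and 23.0 in wt, and 14.1 and 14.4 in mdagg-3. Whether the replicate number plays a part was not tested. Without replicate 2 the log2 ratios of these 3 members would be -1.37, -1.10 and -0.97, and the number of members at full level would be 4. Without replicate 1 it would be 11.

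Reduced members included several whose level also varied among the other libraries. MD15G1170900 was at 61.2 and 36.0 CPM in mdagg-4 and from 108 to 176 CPM in the others (median 118), a ratio of 0.364. MD15G1173200 was at 32.8 and 17.9 CPM against 53.9 to 119 (median 83.7), a ratio of 0.299. MD15G1173500 was at 9.91 and 9.44 CPM against 17.0 to 39.7 (median 24.8), a ratio of 0.368, with whole reads throughout. In these 3 members the mdagg-4 libraries lay below all others.

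MD15G1172600 had 626 reads in mdagg-4 replicate 1 and 84 in replicate 2, where the others had 483 to 1848. At 18.2 and 2.09 CPM it overlapped in replicate 1 with the others, whose lowest value was 16.3 CPM. Its neighbour MD15G1172700 differed between the same libraries in the other direction, with 251 and 1387 reads. Without mdagg-4 replicate 1 the log2 ratio of MD15G1172600 would be -3.89. MD15G1172600 and MD15G1172700 had estimated reads that were not whole in some library, as did most members, and the part of shared reads in their levels was not tested.

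Among low-abundance reduced members, MD15G1177400 had 100 and 79 reads in mdagg-4 and 163 to 301 in the others, a ratio of CPM of 0.319. MD15G1175500 had 59 and 57 reads against 102 to 191, a ratio of 0.385. MD15G1169100 had 65 and 19 reads against 62 to 210, with a ratio of 0.469 in replicate 1 and 0.118 in replicate 2. MD15G1165000 had 42 and 51 reads against 69 to 148, a ratio of 0.397. All 4 had both mdagg-4 libraries below all others in CPM.

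The 3 nearly lost members were all low-abundance, with means of at most 1.27 CPM over the 6 other libraries. MD15G1170400 had 4 and 0 reads in mdagg-4, while the other libraries had 42 and 48 (wt), 53 and 20 (mdagg-2), and 13 and 79 (mdagg-3). MD15G1170100 had 1 and 3 reads in mdagg-4, 9 and 76 in mdagg-3, 103 and 12 in wt, and 11 and 6 in mdagg-2. Its mean over the 6 others was 1.05 CPM and its median 0.345 CPM. The ratio of 0.0494 thus rests largely on 1 library of wt and 1 of mdagg-3. In both members the mdagg-4 libraries lay below all others, and the others varied too, most of all in mdagg-3 in MD15G1170400 and in wt in MD15G1170100, while the wt replicates of MD15G1170400 were close to each other.

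MD15G1175700 had 0 reads in both mdagg-4 libraries, 15 and 2 in mdagg-3, 14 and 8 in wt, and 0 and 6 in mdagg-2. Set against a floor of 3 counts over both mdagg-4 libraries, its mean in the others was at least 5.66-fold higher, a bound that covers counting error only, and 1 library of mdagg-2 was also at 0. MD15G1172800 was the next lowest, with a ratio of 0.13, and is named after its values were seen. It had 16 and 9 reads in mdagg-4 and 49 to 132 in the others. MD15G1170100 and MD15G1170400 lie 3 places apart in the order of members, and between them stand MD15G1170200 at 0.581 and MD15G1170300. The latter had 0 and 14 reads in mdagg-4 and 0 to 20 in the others, so that its ratio of 0.623 averages 0 in replicate 1 with a value above 1.2 in replicate 2.

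**Figure D4:**
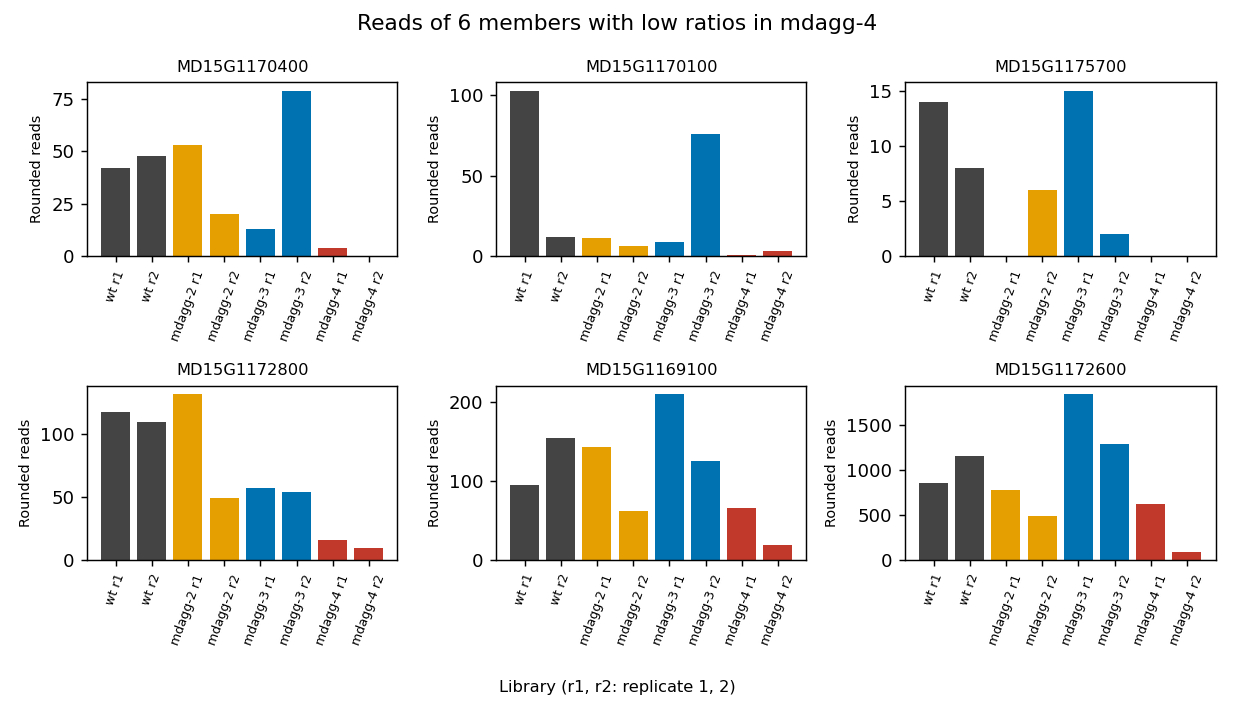
Rounded reads in each of the 8 libraries for the 3 nearly lost members (top row) and 3 reduced members (bottom row), with bars starting at 0 and each panel on its own scale. The red mdagg-4 bars are the lowest or among the lowest in each panel, while the other bars of a panel also differ several-fold in most panels.

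The intermediate members showed more than 1 pattern over the libraries. MD15G1180200 was at 14.6 and 12.5 CPM in mdagg-4, and all 6 others were higher, at 17.9 to 22.1 CPM. MD15G1166100 (50.2 and 30.9 CPM against 36.0 to 110) and MD15G1174500 (42.1 and 29.6 CPM against 35.5 to 88.8) overlapped with the others, among which 1 wt library was the highest. MD15G1171000 was at 24.8 CPM in 1 mdagg-4 library and 55.0 in the other, with 36.4 to 80.6 CPM elsewhere. Low-abundance members of this class included MD15G1168500, MD15G1172000 and MD15G1175100, with ratios of 0.624, 0.636 and 0.627 and both mdagg-4 libraries below all others in each.

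The mdagg-4 libraries thus gave the same side for most members and the same class for fewer. Both ratios were below 0.8 in 79 of 96 members, both were at or above 0.8 in 6, and 11 had 1 on each side. In 25 members both libraries were near 0.5, and in 11 members the libraries differed from each other by more than 1 on the log2 scale. Between the wt libraries 5 members differed by that much, between those of mdagg-2 12, and between those of mdagg-3 8. The median absolute log2 difference between the 2 libraries of a group was 0.32 over the members in mdagg-4 and 0.32 over all features.

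Neither end of the run was a single clean step. At the start, MD15G1164700 was at 13.5 and 14.3 CPM in mdagg-4 against 23.8 to 30.4 CPM in the others, and MD15G1164900 at 9.33 and 7.95 CPM against 12.7 to 18.5. Just before them, MD15G1164600, which lies outside the chosen range, had 39 and 49 reads in mdagg-4 against 65 to 89 in the others, a ratio of 0.503 with both libraries below all others. The next feature out, MD15G1164400, was at a ratio of 0.906 with 1100 and 1443 reads against 1080 to 1487, and MD15G1164300 at 1.10. Further out, MD15G1164000, named after its values were seen, was again low, with 20 and 19 reads against 30 to 50, a ratio of 0.44 with both mdagg-4 libraries below all others.

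At the other end, MD15G1180500 and MD15G1180600 had ratios of 0.517 and 0.516, and MD15G1180300 had 2 and 13 reads against 8 to 21. Beyond them MD15G1180700 had a ratio of 0.717 (129 and 116 reads against 107 to 223) and MD15G1181100 a ratio of 0.621 (45 and 24 reads against 16 to 69), both overlapping with the others. MD15G1181200, with 1664 and 2272 reads against 1099 to 2111, was at 1.04. Further on, MD15G1182600, a low-abundance feature named after its values were seen, had the lowest ratio of the 20 features on that side, 0.25. With 0.1 CPM added, its log2 ratios in the mdagg-4 libraries were only -1.18 and -1.28, so this ratio is uncertain. Both mdagg-4 libraries lay below all others in 2 of the 20 features before the run and in 2 of the 20 after it. This was so for 3.93% of all features and 4.16% of those in field 15 outside the run, and such small counts were not tested. Of the 20 features before the run 15 had ratios above 0.8, and of the 20 after it also 15, with medians of 0.976 and 0.904. In the remainder of field 15, 2.16% of 1574 abundant features had a ratio of at most 0.6, against 41 of the 50 abundant members.

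The 63 identifiers of the range that did not meet the count rule added little. Of these, 42 had 0 reads in all 8 libraries, and no single library had more than 18 reads of any of the rest. Summed over all 63, they had 42 and 40 reads in mdagg-4 and 32 to 54 reads in the other libraries, a ratio of 0.812 in CPM. Reads were seen in the others and not in mdagg-4 for 5 of them, and in mdagg-4 alone for 1. The share of identifiers that met the count rule was 60.4% in the range and 66.9% in the remainder of field 15.

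Lengths differed somewhat by class. The median length was 1604 bases among the 47 members near 0.5, 1194 among the 20 reduced, 1264.5 among the 16 intermediate, and 1965 among the 8 at full level, where the median over all features was 1513. Per length, the 6 other libraries gave members near 0.5 0.473 to 193 TPM and full-level members 0.668 to 21.3 TPM. The ranges of the classes in length and in level per length overlapped.

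Lines mdagg-2 and mdagg-3 did not set the borders of the run, and the difference between these lines is taken from their own libraries, although the model's estimate of the spread also draws on the wt and mdagg-4 libraries that did. In edgeR's quasi-likelihood test of mdagg-3 against mdagg-2, with Benjamini-Hochberg adjustment over 32373 features, 0 of the 96 members passed an adjusted p of 0.05, where 0.00309% of all features did. At an unadjusted p under 0.05 there was 1 member, MD15G1167300 (all features 1.69%), or 0 to 4 members with each library left out in turn (0 without mdagg-3 replicate 1 and 4 without mdagg-3 replicate 2), and DESeq2 called 0 members (all features 0.0363%). The median log2 difference of the members was 0.04, with a median standard error of 0.305, and that of all features was -0.01. MD15G1167300 had 29 and 47 reads in mdagg-2 and 15 and 24 in mdagg-3, which do not overlap, and the log2 difference was -1.15 with an SE of 0.43 (adjusted p = 1 in edgeR).

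Against wt, whose libraries helped to set the borders and are shared by both comparisons, 0 members passed in mdagg-2 (all features 0.00309%) and 0 in mdagg-3 (all features 0%) in edgeR's test. At an unadjusted p under 0.05 there was 1 member in each (all features 3.65% and 3.13%), MD15G1166500 in both, with log2 differences of 1.47 ± 0.47 (SE, edgeR adjusted p = 0.998) in mdagg-2 and 1.10 ± 0.47 (SE, edgeR adjusted p = 1) in mdagg-3. DESeq2 called 0 members in either line (all features 0.0951% and 0.123%). The median log2 differences of the 96 members were -0.02 and -0.0004. A p that misses the threshold does not show equal levels, and the median standard error was 0.305. In the same edgeR fit 0 members passed for mdagg-4 against wt, where the median log2 difference of the members was -0.992. Differences of that size in single members of mdagg-2 or mdagg-3 could therefore also go uncalled, and no equality is read from the counts of 0.

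When the classes used for mdagg-4 were applied to the other lines, each against the 4 libraries of wt and the other of these lines, 1 of 96 members was near 0.5 in mdagg-2 (all features 2.37%) and 5 in mdagg-3 (all features 3.34%). At full level were 71 members in mdagg-2 (all features 69.3%) and 66 in mdagg-3 (all features 71.8%). Both libraries lay below the 4 others in 3 members of mdagg-2 (all features 5.16%) and 7 of mdagg-3 (all features 3.58%), and above them in 4 (all features 5.4%) and 3 (all features 4.17%). By library, again with 0.1 CPM added, the median ratio of the abundant members was 0.97 and 0.966 in the wt pair. It was 1.06 and 0.924 in the mdagg-2 pair, and 1.02 and 0.992 in the mdagg-3 pair.

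**Figure D5:**
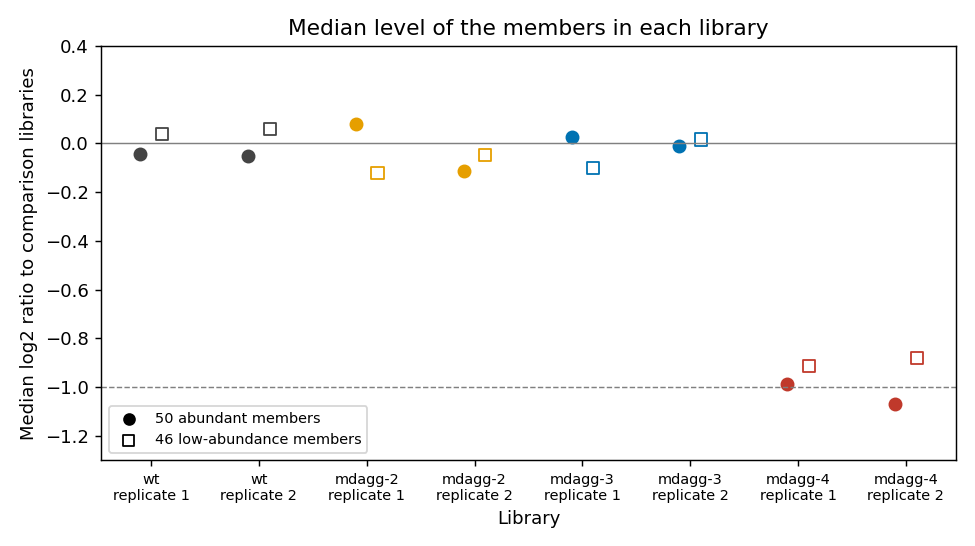
Median log2 ratio of the members in each library, over the 50 abundant (filled circles) and the 46 low-abundance members (open squares), against the 6 other libraries for mdagg-4 and against the 4 libraries of the 2 other non-mdagg-4 groups for the rest. Both mdagg-4 libraries lie between -0.88 and -1.07, and the other 6 libraries between -0.12 and 0.08.

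For mdagg-4 against wt, the comparison on which the range was chosen, 0 members passed an adjusted p of 0.05 in edgeR's test (all features 0.00309%), 68 of 96 had an unadjusted p under 0.05 (all features 2.94%), and DESeq2 called 17 members lower (0.138% of all features were called lower). Beyond the limit of edgeR's test given above, nothing is read from these counts, since the range was chosen on this contrast.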

How the data were processed

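Each of the 8 libraries came with a table in Salmon's column layout, in which the authors deposited, per the file headers, feature length, effective length, TPM and an estimated count of reads, an expected count that need not be whole (67.9% of values were whole). The submitters' processing notes name Salmon and DESeq2 with no version. The genome build is not given in the sources used here. A table by the authors that compares each line with wt was not used here. Estimated counts were rounded. Features were kept by edgeR's filterByExpr (32373 of 52311, with all 96 members) and scaled with TMM factors. Tests were quasi-likelihood F tests in edgeR 4.0.16 under R 4.3.3, from 1 model of the 8 libraries with 4 group means, which leaves 4 degrees of freedom for the spread, Benjamini-Hochberg adjustment over all features tested and a threshold of 0.05, with DESeq2 1.42.0 as an alternative. Standard errors of log2 differences were derived from F. Log2 ratios used a prior of 0.1 CPM, and mean log2 CPM a prior count of 2. Simulated data with known answers were also run through the model, and their outcome is not reported here.

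The members and classes were chosen with earlier results of these data known. Named members were, per class and abundance, those with the highest mean CPM in the 6 other libraries, all nearly lost and higher members, the 3 at each end with 3 neighbours outside, and the member with the smallest p between mdagg-2 and mdagg-3. Others are marked as chosen after their values were seen. Alternatives were other size factors, TPM, wt alone as comparison, count and class bounds, the prior, the low-count filter, the replicate block, DESeq2 and leaving out each library. Replicate numbers come from the sample titles, and each p-value sets a difference between groups against the spread between these libraries.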

Additional observations from a re-analysis of the deposited data

Results flagged for a closer look

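For 10 named members, both libraries of another line lay above both wt libraries in CPM while both mdagg-4 libraries lay below them. The members were chosen for low levels in mdagg-4, so that side was fixed by the choice, and the difference between the lines was not tested. Both mdagg-3 libraries lay above both wt libraries in 14.6% of the 96 members and in 16.9% of all features, and both mdagg-2 libraries in 10.4% and 15.3%. The mean of mdagg-2 exceeded that of mdagg-4 by 15.9 CPM in MD15G1164700, by 27.5 CPM in MD15G1165600 and by 3.47 CPM in MD15G1168500. The mean of mdagg-3 exceeded that of mdagg-4 by 3.17 CPM in MD15G1168500, 2.55 in MD15G1172000, 38.0 in MD15G1172600, 21.4 in MD15G1173500 and 2.76 in MD15G1175100. It did so by 6.02 CPM in MD15G1177400, 81.7 in MD15G1178700 and 5.62 in MD15G1180600.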

How the results depend on the processing

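The median log2 ratio of the 96 members in mdagg-4 was -0.98. It was -0.84 with the deposited TPM, a scale on which the median of all features moved to 0.12, so that the members lay -0.96 from it. It was -0.85 with a prior of 0.5 CPM and -0.90 over the 27 members with whole reads in all libraries, an alternative chosen after seeing the data. With each library left out in turn it ranged from -1.03 to -0.95. Other size factors, wt alone as comparison and a minimum of 50 reads (79 members) moved it by less than the spread between the mdagg-4 libraries. The number near 0.5 stayed within 1.5 times of 47 in every alternative run. The number nearly lost, 3, was 6 with a bound of 0.2 and ranged from 3 to 7 with libraries left out, while the number at full level, 8, ranged from 4 to 11; the extremes came from leaving out a mdagg-4 library.

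In edgeR's tests the number of members called was 0 in all 4 comparisons under every alternative run, the replicate block included (0 in each). DESeq2 gave 17 for mdagg-4 against wt and 0 in the other 3. The labels do not say that a replicate number marks one of the 2 independent experiments, and the correlations of deviations between groups were mixed, from -0.314 to 0.529, so the libraries were not treated as pairs, and a pairing is not excluded. For the 46 named members with 12 alternatives each, 521 of 552 log2 ratios moved by less than the spread between libraries and 30 by more, and 1 changed direction. That was the log2 ratio of MD15G1167900, which ranged from -0.79 without mdagg-4 replicate 2 to 0.031 without replicate 1. The cause was not tested. Depth limits the low-abundance members, of which 6 had fewer than 10 reads in both mdagg-4 libraries.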
